A study of Drosophila melanogaster with 3 samples.

Results

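Binding of the ecdysone receptor EcR was examined at 10 genes that make, organise or break down chitin, out of 13945 protein-coding genes in the annotation. The genes were chosen by their known function, with earlier results of these data known: the chitin synthases kkv and Chs2, the assembly genes knk, rtv, serp and verm, and the chitinases Cht2, Cht5, Cht7 and Cht10. All 10 symbols were found in the annotation, and none was left out for low signal. The data are chromatin immunoprecipitation followed by sequencing (ChIP-seq) from whole Drosophila melanogaster pupae, males and females together, of the strain EcR-GFP. This is a transgenic line with enhanced GFP joined to the C-terminus of EcR, and an antibody against GFP was used. The 3 biological replicates, each aged 24 hours per the labels, form the only group, so no untagged line, hormone treatment or other stage was compared. Which promoter drives the tagged receptor, whether the untagged receptor is also present, and from which event the age was counted are unknown here. The 3 biosamples are separate samples of this line. Whole animals were used, so a peak cannot be assigned to the epidermis, tracheae, gut or any other tissue. Expression was not measured.

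Chitin is a polymer of N-acetylglucosamine that gives the insect cuticle, the tracheal lining and the lining of the midgut much of their strength. A membrane-bound synthase extrudes the polymer at the apical face of a cell, extracellular proteins arrange and partly deacetylate it, and chitinases digest it when the old cuticle is shed. In the pupa, pulses of ecdysone time the detachment of one cuticle and the laying down of the next, and EcR with its partner ultraspiracle is the nuclear receptor that carries the hormone signal to genes. Kkv is the synthase of epidermis and tracheae, and Chs2 is the synthase associated with the midgut lining. Knk and Rtv are membrane-associated proteins needed for ordered chitin fibres. Serp and Verm are secreted chitin deacetylases that limit the length of tracheal tubes. Cht5 and Cht10 are best known from the beetle Tribolium, where they digest the old cuticle at moulting. Cht7 is membrane-anchored in that beetle and acts in chitin organisation. Cht2 is a secreted chitinase.

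The sequences that carry the main sites are shown first, since later results refer to them. They are the dm6 plus strand, 60 bases either side of the summit of the strongest peak of kkv, Cht7, Cht10 and verm, the 4 genes with the highest-ranked peaks, and of both peaks of serp. All of these genes are transcribed from the minus strand. Capitals mark matches to the motifs described further on: the grainyhead core ACCGGTT at kkv and at the stronger serp peak, and the inverted repeat of EcR sites at Cht10 and at the weaker serp peak.
kkv, the first intron, chr3R:5385901-5386021: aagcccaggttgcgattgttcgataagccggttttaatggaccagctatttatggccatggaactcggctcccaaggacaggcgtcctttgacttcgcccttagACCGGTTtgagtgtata
Cht7, the first intron, chr3L:3101329-3101449: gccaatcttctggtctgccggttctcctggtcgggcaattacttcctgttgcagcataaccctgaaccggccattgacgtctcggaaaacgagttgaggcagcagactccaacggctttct
Cht10, promoter, chr2L:23025532-23025652: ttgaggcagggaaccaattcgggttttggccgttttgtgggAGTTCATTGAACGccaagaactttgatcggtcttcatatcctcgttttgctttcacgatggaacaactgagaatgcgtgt
verm, upstream, chr3L:19696069-19696189: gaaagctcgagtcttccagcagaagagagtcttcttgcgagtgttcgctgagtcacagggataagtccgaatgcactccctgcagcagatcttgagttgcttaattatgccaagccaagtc
serp, stronger intronic peak, chr3L:19703441-19703561: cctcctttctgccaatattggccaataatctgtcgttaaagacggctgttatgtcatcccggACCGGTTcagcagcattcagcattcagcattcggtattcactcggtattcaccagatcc
serp, weaker intronic peak, chr3L:19702775-19702895: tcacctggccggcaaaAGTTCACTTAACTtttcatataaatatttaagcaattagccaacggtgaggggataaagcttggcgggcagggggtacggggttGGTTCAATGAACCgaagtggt

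EcR-GFP lay at 9 of the 10 genes, every one except Chs2. A gene is called bound here when an optimal peak has its summit in the gene body or in the 2 kb before the outermost annotated start, together named the gene region. The optimal list is the authors' set of 9095 peaks, thresholded on how well ranks repeat between replicates (the irreproducible discovery rate). Among all 13945 protein-coding genes 30.7% were bound, and among the 8363 whose regions are as long as those of the 10 genes (3507 to 28342 bp) 36.7% were. The 9 bound genes held 22 summits, all different, and 4 genes (kkv, verm, Cht5 and Cht7) held 3 or more, as 8.02% of protein-coding genes of any length did. With 1 summit counted per stretch of overlapping peaks, kkv held 4, Cht7 3, and verm and Cht5 2 each. The 8.02% was not recounted in that way. Over the summed regions there were 2.03 summits per 10 kb for the chitin genes and 0.848 for all protein-coding genes. The second value covers genes of every length and counts a shared summit once for each gene, 10526 counts in all. With 1 summit per stretch of overlapping peaks, the 22 became 17. No test was run on these counts, because the genes were chosen with earlier results of these data known and genes are not replicates.

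The same genes were found in the replicates taken alone. Among the 9095 strongest peaks of each replicate's own list, 9, 9 and 8 of the 10 genes were bound in replicates 1, 2 and 3 (8.67 ± 0.577, SD, n = 3), against 30.2%, 30.9% and 30.1% of all protein-coding genes. Chs2 was unbound in all 3, and rtv was also unbound in replicate 3. The number of summits over the 10 genes was 23, 22 and 21 (22 ± 1, SD, n = 3).

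**Figure D1:**
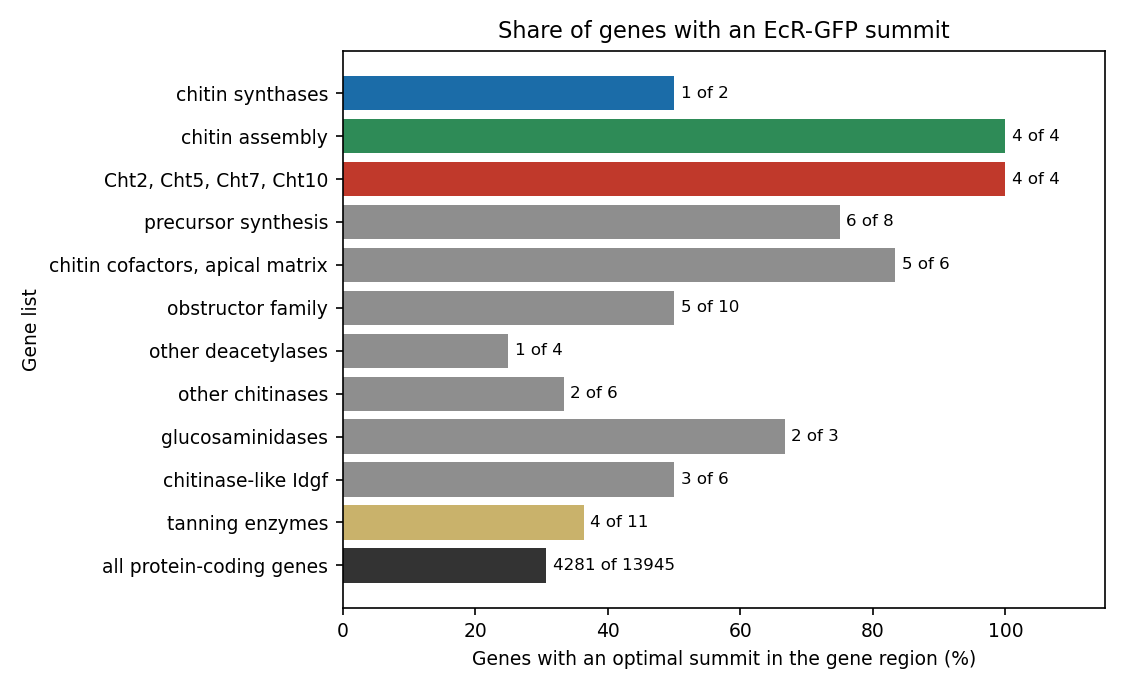
Percentage of genes with an optimal EcR-GFP summit in the gene region (x axis) for each gene list (y axis), with the number bound of the number listed beside each bar. The assembly genes and the 4 chitinases were bound in 4 of 4 cases each and the synthases in 1 of 2, against 4281 of 13945 protein-coding genes.

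The synthases differed in whether they were bound: kkv had 5 optimal summits and Chs2 had 0. Kkv (FBgn0001311, 3R 5378093–5392866, minus strand) held the highest-ranked peak of the 10 genes. That peak spans 3R 5385426–5386384 with its summit at 5385961, in the long first intron and 6905 bp downstream of the start. Its signal was 4059 as deposited, rank 192 of 9095. It ranked 169 in replicate 1, 198 in replicate 2 and 239 in replicate 3, each list holding 30000 peaks, with summits 3, 0 and 8 bp away. A small gene, CG14668 (3R 5386717–5387664), lies inside this intron, and its start is 1703 bp from the summit, closer than the start of kkv.

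The other peaks of kkv lay nearer to the start. Summits in the same intron, 2404 and 3664 bp downstream of the start, ranked 1653 and 1891, and both had a summit within 100 bp among the strongest 9095 peaks of all 3 replicates. The more distant of these also falls in the region of CG14668. One wide promoter peak (3R 5392618–5393547) carried summits 44 bp downstream and 155 bp upstream of the kkv start, ranked 3791 and 4946. It is shared with CG1172, a gene transcribed the opposite way whose body begins 1055 bp beyond that of kkv. Both summits were among the strongest peaks in only 2 replicates. The downstream summit had none within 100 bp in replicate 3, where the nearest was 105 bp away at rank 3211. The upstream summit ranked 9646 in replicate 1, 5374 in replicate 2 and 3211 in replicate 3.

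Chs2 (FBgn0029091, 3L 21962401–21969964, plus strand) held no optimal summit in its region. The pooled list of 30000 peaks, which contains weaker peaks, had 2 summits there, 318 and 119 bp upstream of the start, ranked 14520 and 19654. The stronger of these had a match at rank 12457 in replicate 2 and 15898 in replicate 3. Replicate 1 listed 0 summits in the Chs2 region among its 30000 peaks. The nearest optimal summits outside the region were 1936 bp past the Chs2 end, nearest to the start of P5CS (rank 1883), and 5304 bp before the region, at the promoter of CG7458 (rank 4423). These weaker peaks lie below the optimal threshold, and with read numbers unknown they were not called as binding.

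All 4 assembly genes were bound, with 7 summits, and the leading peak of each ranked below that of kkv. The peak at knk (FBgn0001321, 3R 10122365–10125664) had its summit 20 bp upstream of the only annotated start and ranked 5417. In replicates 1, 2 and 3 it ranked 4469, 6275 and 6155, so it was among the strongest 9095 peaks of each. The peak at rtv (FBgn0261277, X 11152484–11153990) was the weakest leading peak of the bound genes, at rank 7638, with its summit 14 bp downstream of one of 4 annotated starts. It ranked 8652, 5863 and 10784 in replicates 1, 2 and 3, the last outside the strongest 9095. Rtv therefore counted as unbound when replicate 1 or replicate 2 was left out. That setting kept the same optimal list and required a match among the strongest 9095 peaks of both other replicates. The rtv region also belongs to Dlic, a dynein light intermediate chain gene whose body begins 430 bp away and is transcribed the opposite way. At knk and rtv alike, the binding was thus a promoter peak of moderate or low rank.

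The deacetylase genes serp (FBgn0260653, 3L 19700977–19708015) and verm (FBgn0261341, 3L 19690033–19695260) are neighbours on the same strand, 5716 bp apart. Verm held the stronger site, a wide peak upstream of its start (3L 19695648–19696576). The main summit, 869 bp upstream, ranked 1324 in the optimal list and 1212, 1456 and 1359 in replicates 1, 2 and 3. A second summit in the same peak, 1068 bp upstream, ranked 6302 and had no match within 100 bp in replicate 2. A further summit lay 960 bp inside verm, in the second intron, at rank 4520, and ranked 4908, 3413 and 5235 in the replicates. In serp both summits were in the third intron, 4199 and 4865 bp from the nearest of 2 annotated starts and far from any promoter. The first ranked 4384 and had ranks of 4419, 5363 and 4316 in the replicates. The weaker one ranked 6627, with ranks of 9908, 5855 and 6449. Serp was thus the only one of the 9 bound genes with no summit within 1 kb of an annotated start.

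The 4 chitinases were all bound, with 10 summits, of which 8 were in the promoter class and 2 in introns. Cht7 (FBgn0035398, 3L 3090985–3106958) held the second strongest leading peak of the 10 genes. Its summit lay at 3101389 in the first intron, 5569 bp downstream of the start, with signal 3012 and rank 344. It ranked 319, 324 and 393 in replicates 1, 2 and 3. The other Cht7 summits clustered around the start, 196 bp upstream (rank 6206) and 466 and 665 bp downstream (ranks 8428 and 5515). The summit at 466 bp was the weakest of all 22 and was among the strongest 9095 peaks of replicate 3 alone, at rank 7678, with ranks of 11601 in replicate 1 and 13208 in replicate 2.

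Cht10 (FBgn0250907, 2L 22999574–23025915) is the longest of the 10 genes and had 1 summit. It lay 323 bp downstream of the outermost start and 173 bp upstream of the next one, overlapped no annotated exon within 60 bp, and ranked 778. Its ranks were 977, 1238 and 543 in replicates 1, 2 and 3. No weaker peak appeared in the Cht10 region in the pooled list either, so this promoter site was the only one listed over its 28342 bp region.

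Cht2 (FBgn0022702, 3L 1752328–1755934) had a wide promoter peak (3L 1754772–1756030) with 2 summits, ranked 1467 and 4572. The stronger matched rank 1190 in replicate 1 and 1898 in replicate 3, and the weaker matched rank 2968 in replicate 1 and 1298 in replicate 2. Replicate 2 placed its summit between the 2 positions, 134 bp from the stronger one. All 3 replicates thus had a peak ranked 1190 to 1898 over this promoter, but the position of its summit differed. Cht2 counted as unbound when replicate 1 was left out, since neither summit was matched within 100 bp in both others. When replicate 3 was left out, its leading rank was 4572 in place of 1467. The region is shared with CG8001, which begins 224 bp away and is transcribed the opposite way. Cht5 (FBgn0038180, 3R 13767549–13770732, plus strand) had 3 summits upstream of its start. Those at 442 and 230 bp share a wide peak and ranked 3289 and 5819. The one at 442 bp ranked 3161, 3098 and 3856 in the replicates. The third, 1982 bp upstream at rank 6888, is 189 bp from the start of CG9312 and just inside the 2 kb limit.

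**Figure D2:**
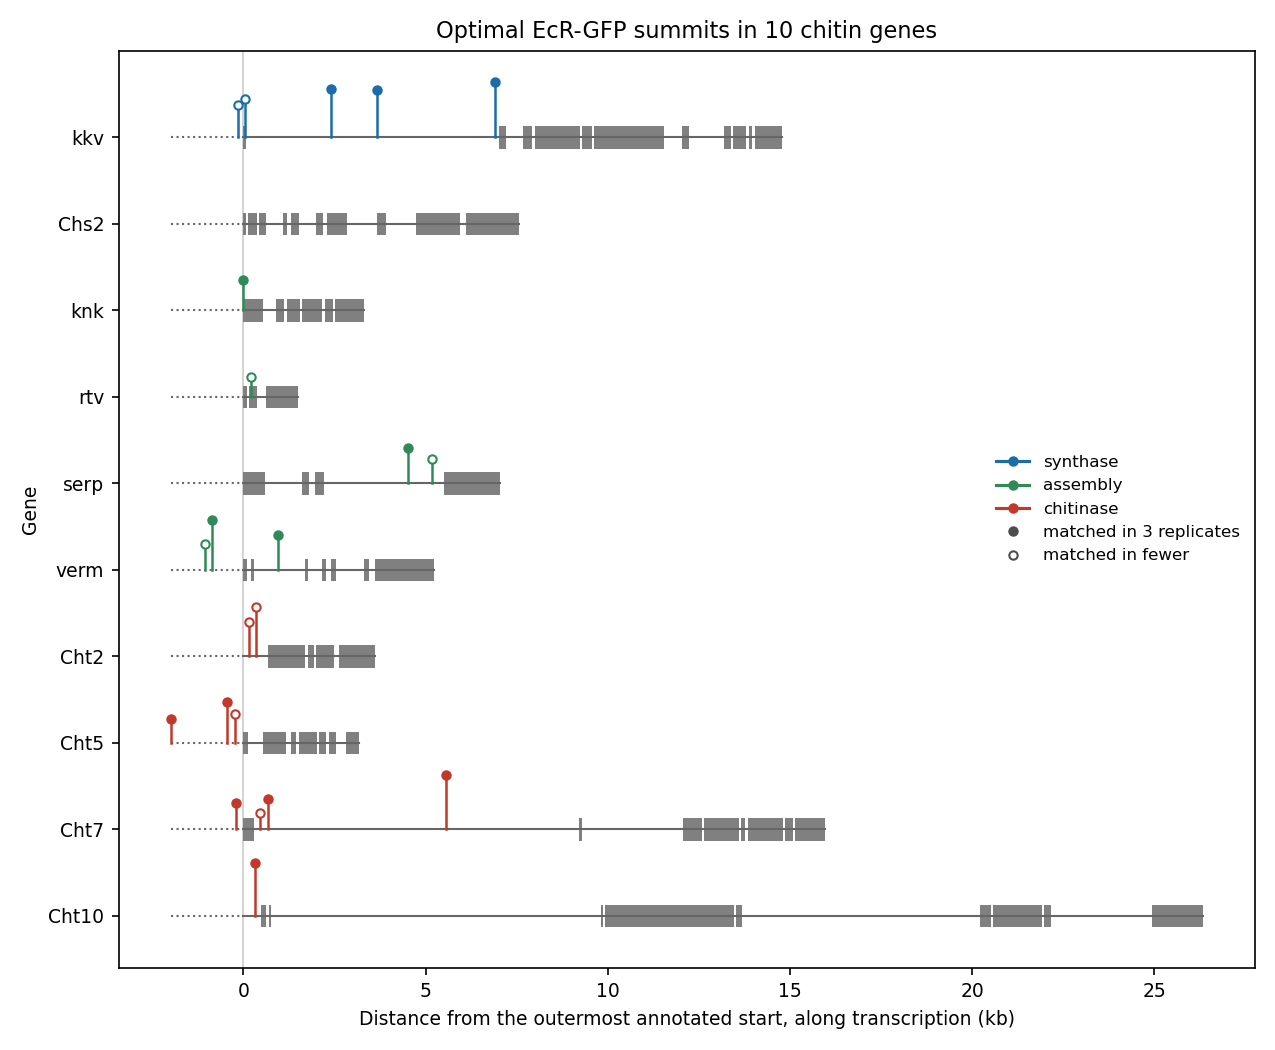
Each of the 10 genes drawn to scale along its direction of transcription (x axis, kb from the outermost annotated start). Grey boxes are exons of the canonical transcript, dotted lines the 2 kb upstream, and stems the optimal summits, with height rising with signal percentile in the optimal list. Filled circles are summits matched within 100 bp among the strongest peaks of all 3 replicates (13 of 22). The tallest stems are intronic in kkv and Cht7, 6905 and 5569 bp from the start.

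By count of summits at a cut of 500 bp, those of the chitinases lay mostly at promoters and the others mostly did not. Within 500 bp of a start of the gene itself lay 2 of 5 summits at the synthases, 2 of 7 at the assembly genes and 7 of 10 at the chitinases, 11 of 22 in all. Requiring a match in both other replicates, this total was 5 without replicate 1, 5 without replicate 2 and 8 without replicate 3, and it was not split by role. Within 2 kb of such a start lay 2 of 5, 5 of 7 and 9 of 10 summits, in the same order of roles. The contrast between the assembly genes and the chitinases thus depended on the cut. Both Cht2 summits share 1 wide peak, as do the Cht5 summits at 442 and 230 bp and both kkv summits near the start. Counted by gene, kkv, knk and rtv also had a summit within 500 bp of a start. In the promoter class, which counts starts of any gene, were 12 of 22, against 36.5% of all optimal summits, and in introns were 8 of 22, against 45.5%. The other 2, both at verm, were intergenic. The median rank was 1891 for the 5 summits of kkv, 5417 for the 7 of the assembly genes and 5044 for the 10 of the chitinases, with a range from 344 to 8428 in the last. The nearest protein-coding start belonged to the listed gene for 19 of the 22, and 7 lay in a region shared with another protein-coding gene. Role groups of 2 to 4 genes are too small to rank against each other, and no test was run.

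A match within 100 bp among the strongest 9095 peaks of all 3 replicates was present for 13 of the 22 summits, 59.1% against 66.2% of all optimal summits. A match in 2 replicates was present for 8 and in 1 for 1. By role these full matches were 3 of 5 at the synthases, 4 of 7 at the assembly genes and 6 of 10 at the chitinases. With all 30000 peaks of each replicate, 17 of 22 were matched in all 3. The 5 that were not each missed 1 replicate and lay in a wide peak with 2 summits, and in each case a peak of that replicate covered the position, with a summit 105 to 231 bp away. Over the 17, the largest replicate rank was a median of 1.41 times the smallest, against 1.57 times over the 8286 optimal peaks matched in all 3. These same replicates were the input of the optimal list, so the matches are not an independent check of it.

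**Figure D3:**
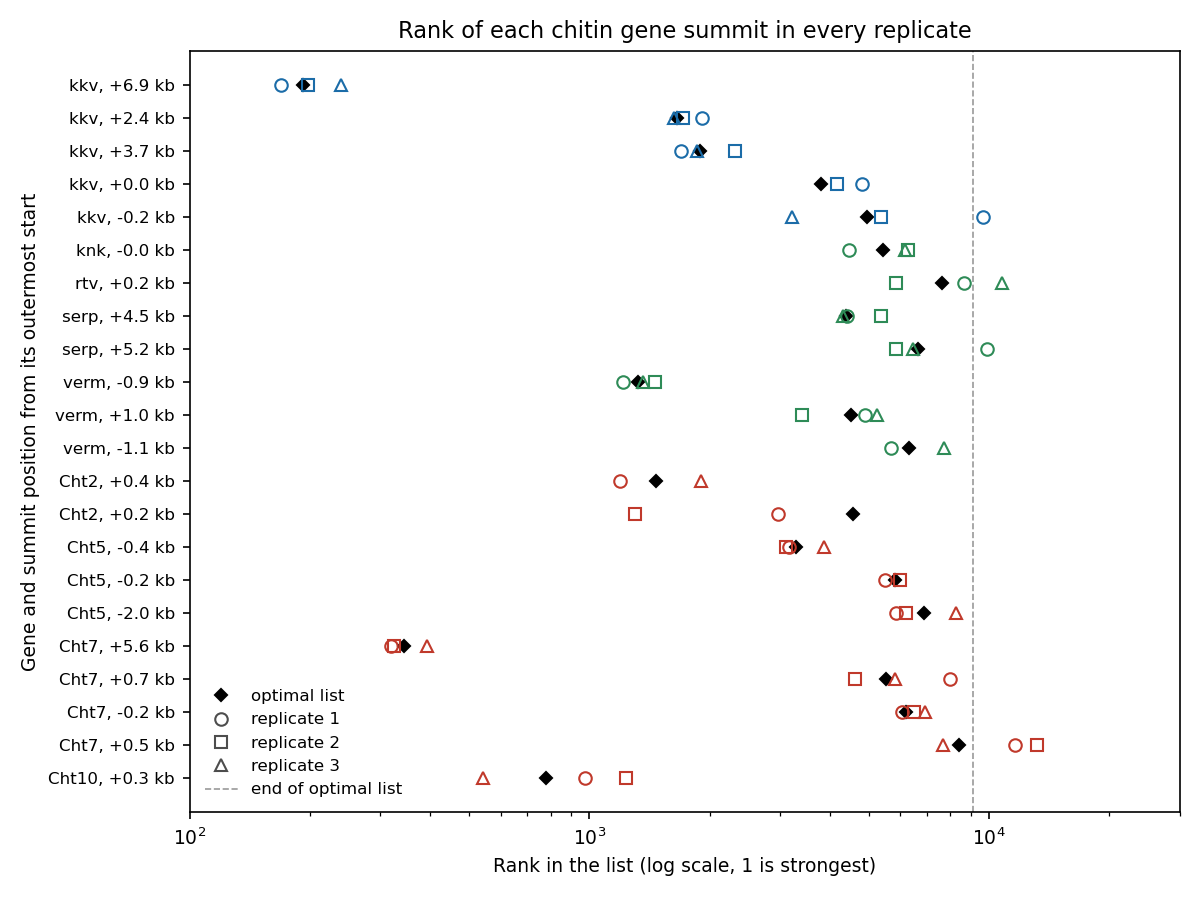
Rank of each of the 22 chitin gene summits (y axis, gene and position from its outermost start) in the optimal list and, where a summit lies within 100 bp, in the 30000 peaks of each replicate (x axis, log scale). The dashed line is the end of the optimal list, and colours are synthase, assembly gene and chitinase as in the other plots.

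The leading peaks fell into the same broad order in the replicates. Taking the strongest peak in each gene's region in each replicate list, kkv averaged rank 202 ± 35.2 (SD, n = 3, as for the genes that follow) and Cht7 345 ± 41.4, and their ranges did not overlap. Cht10 followed at 919 ± 351, verm at 1342 ± 123 and Cht2 at 1462 ± 381, and neighbours among these 3 overlapped. Cht5, at 3372 ± 421, did not overlap with Cht2 above it or serp below it. Serp averaged 4699 ± 577, knk 5633 ± 1010 and rtv 8433 ± 2468, again overlapping from each to the next. Chs2 came last, with ranks of 12457 and 15898 in replicates 2 and 3 and no peak in replicate 1.

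**Figure D4:**
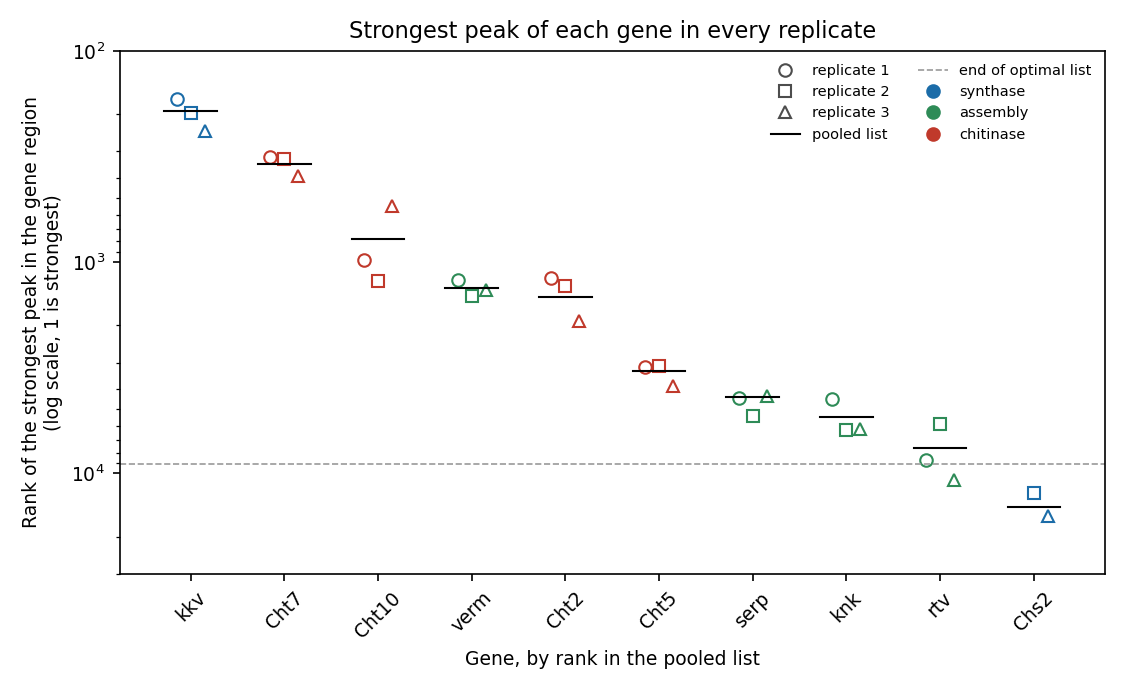
Rank of the strongest peak in each gene region (y axis, log scale with 1 at the top) in each replicate list of 30000 peaks, with a bar for the pooled list, for the 10 genes ordered by pooled rank. Kkv (169 to 239) and Cht7 (319 to 393) lie apart from each other and from the rest in all 3 replicates, and Chs2 lies below the dashed end of the optimal list.

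Motifs were looked for within 100 bp of each summit on both strands, as a description of the letters present. The inverted repeat of EcR sites with a spacer of 1 base, allowing 1 mismatch, was found at 2 of the 22 summits, against 4.84% of all optimal summits. These were the weaker serp peak and the Cht10 promoter. At serp there were 2 copies, one without any mismatch, GGTTCAATGAACC at 3L 19702875–19702887, 46 bp from the summit, and AGTTCACTTAACT at 3L 19702791–19702803 with 1 mismatch, 38 bp from it. The share of all optimal summits with a copy free of mismatches was 0.550%. At Cht10 the match was AGTTCATTGAACG at 2L 23025573–23025585, 13 bp from the summit, with 1 mismatch. The strongest peaks of kkv, Cht7, verm and Cht2 held no such match. The serp peak was outside the strongest 9095 of replicate 1, so the count was 1 when replicate 2 or replicate 3 was left out.

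The grainyhead core, the letters ACCGGTT, stood at 3 of the 22 summits, against 2.31% of all optimal summits. Grainyhead is an epidermal transcription factor of cuticle and barrier genes. The copies were 47 bp from the strongest kkv summit, 57 bp from the kkv summit at 3664 bp and 5 bp from the stronger serp summit. The single receptor site AGGTCA was at 1 summit, the stronger one of serp, 91 bp away, against 7.77%. The letters CAAGGTCA, a site type of the nuclear receptors Hr3 and ftz-f1 that contains AGGTCA, were at 0 of 22, against 1.06%. The letters GAGAGAG were at 1, the kkv summit 44 bp downstream of the start, against 10.6%. With 22 summits, each of these counts rests on 3 sites or fewer.

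The other genes listed here in connection with chitin were bound less completely than the 10 genes. That list is broad and takes in sugar enzymes such as Hex-A, Pgi and Treh, and the chitinase-like Idgf genes. Of 43 other chitin genes, 24 had an optimal summit (55.8%), and of 11 cuticle tanning and pigment enzymes 4 had (36.4%), beside the 30.7% of all protein-coding genes. At 16 of the 24, the strongest peak was nearest to the gene's own start. For the bound genes the median rank of the strongest peak was 1467 over the 9 chitin genes, 2446 over the 24 other chitin genes and 3524 over all 4281 bound protein-coding genes.

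Genes of precursor supply, which lead to the activated sugar UDP-N-acetylglucosamine, were bound in 6 of 8 cases. Mmy, the pyrophosphorylase of the last step, had 4 summits, the strongest in an intron at rank 2275 (1944, 2690 and 2745 in replicates 1, 2 and 3). Hex-A, a hexokinase, had a promoter peak at rank 471 (506, 493 and 471 in the replicates). The trehalase gene Treh had the strongest peak of these lists, rank 103, but its summit is 266 bp from the start of CG10527. Gnpnat (rank 3525, 93 bp from the start of CG7601), Gfat1 (5293) and Pgi (7907, shared with lin) were also bound, and Gfat2 and nst were not.

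Of 6 genes listed for synthase cofactors and the apical matrix, 5 were bound. Reb and exp, which are needed for chitin deposition together with kkv, had 4 and 6 summits with intronic leading peaks at ranks 4209 and 833, the one in exp being nearest to the start of PI31. Pio, a zona pellucida protein of the apical matrix, had 8 summits, led by rank 422 in an intron (412, 436 and 448 in the replicates). Mwh (rank 1612, nearest to the start of CG9119) and snsl (5620) were bound, and dyl was not. The obstructor family of chitin-binding proteins was bound in 5 of 10 cases. Obst-E (rank 2187), Gasp (2601, 5 summits), obst-A (3334, 4 summits) and obst-B (5498) had intronic peaks. The region of obst-H held a weak promoter peak (7010), 154 bp from the start of CG43248. Obst-F, obst-G, obst-I, obst-J and Peritrophin-A were unbound.

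Among the degrading enzymes outside the 10 genes binding was patchy. Of 6 other chitinases, Cht6 had a coding exon peak at rank 272 (298, 284 and 257 in the replicates) and Cht11 a promoter peak at rank 696 shared with CG4558. The start nearest to the Cht6 summit was that of Yp2, 12904 bp away. Cht4, Cht8, Cht9 and Cht12, which lie together on 2R, were unbound and had no peak in the pooled list. The N-acetylglucosaminidases, which split the fragments that chitinases release, were bound at Hexo1 (rank 462, 41 bp from its start, 3 summits) and Hexo2 (7555) and unbound at fdl. Of the other deacetylases Cda5 had a peak at rank 3401, 4027 bp from its own nearest start, and ChLD3, Cda4 and Cda9 had none. The chitinase-like growth factor genes Idgf2 (rank 218, 246 bp from the start of CG5888), Idgf3 (2290, a summit 23 bp from the Idgf2 start) and Idgf4 (8749) were bound, and Idgf1, Idgf5 and Idgf6 were not. Of the tanning enzymes, ple, the tyrosine hydroxylase, had a promoter peak at rank 2098, and speck (2243), Dhpr (3197) and Pu (5208) were also bound. The Dhpr summit also lies in the region of bol, and that of Pu in the region of CG4286. Ddc, amd, e, t, b, y and stw held no optimal summit.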

How the data were processed

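The authors deposited peak lists in dm6 (release 6 of the genome) as narrowPeak files. Per the notes deposited with each sample, replicate lists were made from the reads of 1 replicate with a control, the pooled list from those of all 3 with the control, and the optimal list from all of these. The control was not analysed here. Aligner, peak caller and settings: not given in the sources used here. Depth per sample is unknown, so no counting interval could be computed. The deposited signal value (column 7, the authors' own) served to rank peaks inside each list. As deposited, the −log10 q-value was 4.55 for every optimal peak, so it did not enter the ranking. The optimal list is the strongest 9095 peaks of the pooled list.

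Positions are 1-based. The Ensembl 115 annotation and the RefSeq sequence are of the same assembly, and no peak ran past a chromosome end. Transposable elements were left out. Summits were put in 1 class: promoter (within 500 bp of any start), then exon types, then intron, then intergenic. Replicate summits within 100 bp were counted as matches. Wide peaks are overlapping peak intervals. The inverted repeat was searched under its usual degenerate form, and the other motifs were exact. The search and the matching were checked on made-up sequences and positions. Python 3.11.15 with numpy 2.4.6 and pandas 2.3.3 was used. Alternatives changed the gene region, the peak list, the replicates, the match distance, the promoter width, the mismatches and the window.

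The 10 genes and the other lists were chosen with earlier results of these data known. All 10 genes are named, and every bound gene of the other lists by its strongest peak. Of the 56 listed symbols of other genes, Cht3 is an older name of Cht10 and Dat was ambiguous, so neither was used.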

Additional observations from a re-analysis of the deposited data

How the results depend on the processing

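The number of bound chitin genes (9) lay between 7 and 10 under all 13 alternatives, and that of other chitin genes (24) between 17 and 33, where 3 of the settings were chosen after seeing the data. Chs2 was bound only with 5 kb on both sides, by a peak near P5CS, and in the full pooled list. Knk and rtv were lost in the strongest 4547 optimal peaks, knk and Cht5 with the gene body alone, and serp when only summits up to 1 kb from a start were taken. Rtv was lost without replicate 1 or without replicate 2, and Cht2 without replicate 1, where no summit was matched within 100 bp in both others.

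The 22 summits became 14 with the gene body alone, 14 within 1 kb of a start, 11 in the strongest 4547 optimal peaks and 48 in the pooled list. Matches in all 3 replicates numbered 20 at 250 bp, in place of 13 at 100 bp. Summits within 500 bp of a start (11) ranged from 5 to 8 when each replicate was left out. The inverted repeat was at 1 summit with 0 mismatches, and at 1 to 2 when each replicate was left out: without replicate 2 or without replicate 3 the serp match was lost. With up to 2 mismatches the repeat was at 3 of the 22 summits, against 18.6% of all optimal summits. The added match was at the strongest verm peak. No cause beyond the settings themselves was tested for these changes. Per gene, 37 summit counts moved by more than 1.5 times and 93 did not, and 6 leading ranks moved by more than their replicate SD and 76 did not. Each of these ranks is a place in the same pooled ranking. A leading rank could therefore change only where its peak was dropped or a stronger one was taken in. The 76 ranks that did not move by more than their SD are thus no check of how stable the ranks are. These 6 leading ranks were 1324 for serp with 5 kb on both sides, where it takes in the verm peak, 4520 for verm with the gene body alone, 3791 for kkv and 5515 for Cht7 within 1 kb of the start, 1653 for kkv when the nearest start had to be its own, and 4572 for Cht2 without replicate 3. Among the 76, the leading rank of rtv became 6933 in place of 7638 with 5 kb on both sides, within its replicate SD. No paired analysis was possible because there is only 1 group.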

Other observations

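Between serp and verm lay a further optimal summit that belongs to neither region. It was at 3L 19700076, 901 bp beyond the 3′ end of serp and 4816 bp upstream of verm, at rank 8747, and it ranked 6401, 9143 and 10583 in replicates 1, 2 and 3. With it, the stretch from the verm end to the serp upstream limit held 6 optimal summits, of which the one 869 bp upstream of verm was the highest ranked.

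Weaker peaks of the pooled list, below the optimal threshold, were most numerous at Cht7. Its gene body held 7 of them, at ranks 11753 to 27656, between 2107 and 11324 bp from the start. Kkv had 5, at ranks 12841 to 29247. Serp had 3, at 12320 to 21474, rtv 3, at 14603 to 21491, and Cht5 3, at 10177 to 11583. Cht2 and Cht10 had none. These counts were not set against region length, which was 17974 bp at Cht7, 5184 bp at Cht5 and 3507 bp at rtv. The weaker peaks are given as positions in a list and not as binding sites.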
